A study of Mus musculus with 8 samples.

Results

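The comparison is between livers of male and of female floxed control mice, across autosomal genes. Members are the gene rows of the deposited table that lie on neither X nor Y and reach a mean of at least 1 FPKM (reads scaled by transcript length and by library size) in control males or in control females. Of 24197 genes listed, 8966 met this, 8233 of them in both sexes, 426 in males only and 307 in females only. Of the members, 8424 carry an mRNA accession and 542 a noncoding RNA accession. The choice used expression level alone and no ratio or p-value. Within 5% above the minimum lay 149 members, 4 of them with an adjusted p under 0.05 in the authors' deposited table, and within 5% below it lay 114 autosomal genes, also with 4 such genes.

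RNA was sequenced from snap-frozen livers of mice aged 8 to 12 weeks, with stranded libraries made after depletion of ribosomal RNA. The controls carried a floxed Stat5a-Stat5b locus on a mixed C57BL/6 x 129J background, and the other arm of the study crossed such mice to an FVB/N albumin-Cre line, so that hepatocytes lack both genes while other liver cells keep them. Each of the 4 groups, control female, control male, knockout female and knockout male, has 2 libraries from pooled livers, and the labels give no number of animals per pool. Replicate error here is therefore the spread between 2 pools and not between animals.

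In rodents the pituitary secretes growth hormone in pulses in males and more steadily in females, and the liver reads this pattern through the growth hormone receptor, JAK2 and STAT5. Many liver genes for steroid and drug metabolism, for urinary pheromone carriers and for secreted plasma proteins are known to follow it. STAT5b works beside other factors, among them the male-biased repressor BCL6 and the female-biased homeodomain factor CUX2.

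The table gives group means, and the value of each library was recovered from them for 8951 of the 8966 members. Within a sex, the libraries are called deeper and shallower. The totals behind the FPKM were 34651386 and 15041481 in females and 29149624 and 6192515 in males, so low genes rest on few reads in the shallower male library. Titles carry a code, G138 for both control female pools and G140 for both control male pools, and code and sex cannot be told apart in controls. Sex labels matched the sex-linked genes: Xist read 42.1 and 45.5 FPKM in females and 0.0421 and 0.243 in males, and Ddx3y read 11.9 and 12.2 FPKM in males and 0.0124 and 0.0287 in females. All 15 hepatocyte markers checked were members, and their summed level was 25411 FPKM in females and 24252 in males. Albumin, the plasma carrier that marks hepatocytes, averaged 14568 FPKM in females and 12577 in males.

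Most autosomal genes had nearly the same level in both sexes, and a small set differed widely. On log2((male FPKM + 0.1)/(female FPKM + 0.1)), the median over all members was 0.16, the middle 90% ran from -0.48 to 0.68, and 89.0% of members lay within 1.5-fold. The authors' deposited table, whose ratios are normalized, centres at 0.03 on the log2 scale. Ratios below are to be read against that shift of 0.16. By the ratio of means, 211 members were at least 2-fold higher in males (2.35%) and 179 at least 2-fold higher in females (2%), or 159 and 215 after centring on the median. Without the deeper male library these counts, uncentred, were 328 and 279. Differences of at least 32-fold were found in 11 members toward males and 12 toward females.

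In the authors' deposited table, 127 members had an adjusted p under 0.05 and were higher in males, which is 1.42% of members, and 140 were higher in females, which is 1.56%, together 267 or 2.98%. Such genes are referred to as called. Their median log2 ratio was 1.76 for the male-biased and -1.29 for the female-biased ones. In the lower sex 42 of the 127 and 58 of the 140 were under 1 FPKM. These are members only through the sex where they were higher. Over all 8966 members, 426 reached 1 FPKM in males only and 307 in females only. In 126 of the 127 and in all 140, both libraries of one sex lay above both of the other; among all members with single libraries, 38.5% did so toward males and 9.37% toward females, or 2271 and 1507 of them in place of 3449 and 839 once libraries were scaled by the median of ratios. Calls were more frequent among abundant genes, at 2% of members of 1 to 5 FPKM in the higher sex, 3.21% of those of 5 to 50 FPKM and 11.7% of those above.

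A refit by limma on log2(FPKM + 0.1) of the single libraries called 32 members toward males (0.358%) and 28 toward females (0.313%), of which 30 and 26 were also called by the authors. Limma voom on the recovered reads called 56 and 33 (0.641% and 0.377%), with 54 and 32 of these shared with the authors' calls. The limma count depends on single libraries: it was 2 and 3 without the deeper female library, 3 and 7 without the shallower female library, 57 and 61 without the deeper male library, and 6 and 9 without the shallower male library. Relative to the median, 1 of the authors' 267 calls lost its direction without the deeper male library, and the others kept it throughout. That gene is Mup15, at 26.8 FPKM in the deeper male library and listed at 0 in the other 3. This check could show little else: in 126 of the 127 and all 140 calls the libraries of the sexes already did not overlap.

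**Figure D1:**
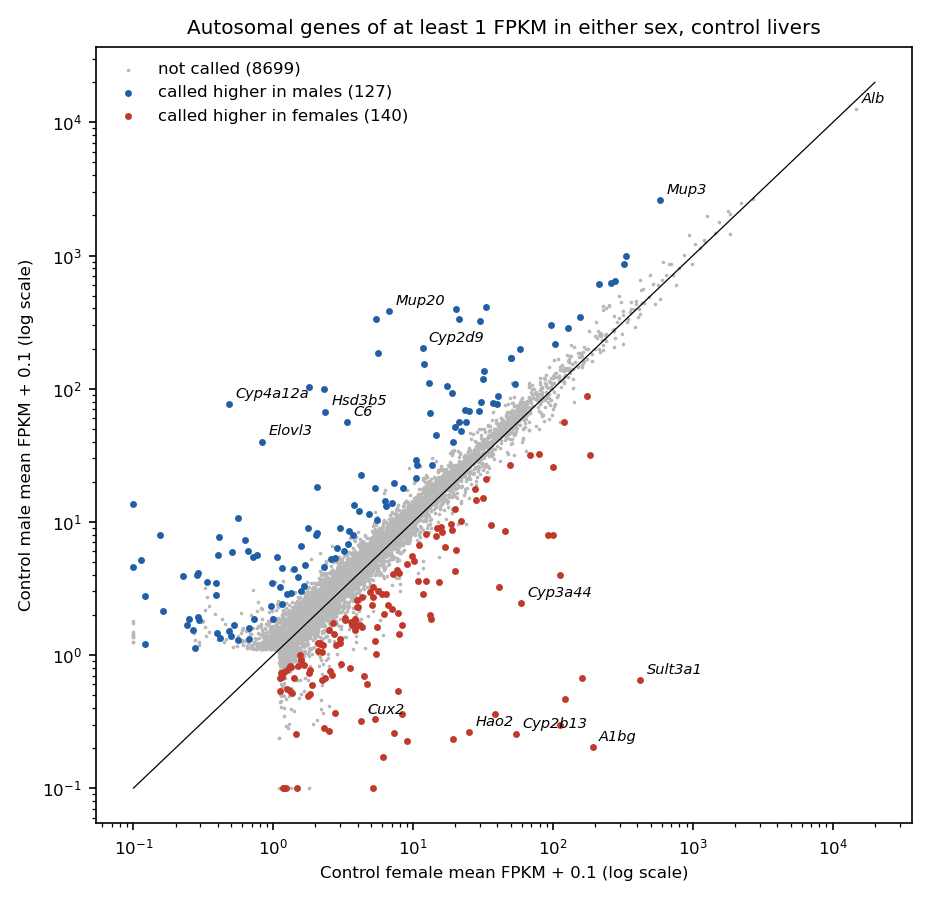
Mean FPKM + 0.1 of each autosomal member in control females (x) and control males (y), both on log scales; blue and red mark the 127 members called higher in males and the 140 called higher in females, and the line marks equal levels. Most members lie along the line, while called genes such as A1bg and Cyp4a12a stand far from it.

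The genes with the widest female bias were nearly silent in males. A1bg, which encodes a plasma glycoprotein (NM_001081067, chromosome 15, 60749143 to 60752825 on mm9), read 246 and 139 FPKM in the female libraries and 0.207 and 0 in the male libraries. Sult3a1, a sulfotransferase (NM_020565, chromosome 10, 33577527 to 33599281), read 599 and 243 FPKM in females and 0.0626 and 1.03 in males. For both genes the lowest female library was more than 100 times the highest male one, so the sexes were far apart beyond the spread between pools. Their log2 ratios were -9.89 and -9.35, and limma gave adjusted p of 0.0018 and 0.021. The cytochrome P450 genes Cyp2a4, a steroid hydroxylase, and Cyp2b13 followed. Cyp2a4 read 171 and 149 FPKM in females and 1.04 and 0.0942 in males. Cyp2b13 read 61.8 and 46.9 FPKM in females and 0.219 and 0.0861 in males, a limma difference of -7.79 ± 0.36 (SE of the log2 difference, adjusted p 9.99e-04).

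Other genes among the 15 most female-biased members encode much the same classes of protein. Slc22a26 and Slc22a27, of the organic anion transporter family, had log2 ratios of -6.73 and -5.15. Hao2, a peroxisomal hydroxyacid oxidase, had -6.58. The hydroxysteroid sulfotransferases Sult2a2 and Sult2a1 had -6.36 and -4.81, and the P450 genes Cyp3a41a, Cyp2b9 and Cyp3a44 had -5.31, -4.79 and -4.60. Gm4794, which RefSeq names Sult3a2 and which neighbours Sult3a1, read 188 and 57 FPKM in females and 0 and 0.732 in males. The microRNA gene Mir6935 was listed at 0 in both male libraries and read 8.12 and 2.08 FPKM in females; its adjusted p was 0.033 in the authors' deposited table and 0.068 by limma. All 15 were called by the authors, and 13 of them by limma.

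Males led at a P450 gene and at the major urinary protein genes, whose products are made in liver and carry pheromones in urine. Cyp4a12a, a fatty acid omega-hydroxylase (NM_177406, chromosome 4, 114971650 to 115005420), read 66 and 86.1 FPKM in males and 0.131 and 0.631 in females, a log2 ratio of 7.31. Mup7 (NM_001134675, chromosome 4, 60079340 to 60083347) read 87.7 and 109 FPKM in males and 2.01 and 2.38 in females. Mup16 (NM_001199936, chromosome 4, 61176624 to 61180518) read 70.3 and 135 FPKM in males and 1.57 and 1.81 in females. In each of these 3 the libraries of the sexes were apart by more than 30-fold, and limma gave adjusted p of 0.014, 0.0022 and 0.0027. Mup20, known as darcin, a pheromone that attracts females, read 187 and 573 FPKM in males and 6.09 and 7.13 in females. Hsd3b5, a 3-ketosteroid reductase of male mouse liver, read 44.5 and 89.5 FPKM in males and 3.07 and 1.45 in females. Cyp2d9, a testosterone 16-alpha hydroxylase, read 157 and 247 FPKM in males and 11.4 and 11.7 in females, a limma difference of 4.08 ± 0.33 (adjusted p 0.008). C4a, the sex-limited protein of mouse serum, read 13.8 and 7.41 FPKM in males and 0.517 and 0.409 in females, though its copy C4b is nearly identical and reads can be split between them.

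At several of the 15 most male-biased members, pools of the same sex lay far apart. The fatty acid elongase Elovl3 read 5.51 FPKM in the deeper male library and 74.4 in the shallower one, against 0.937 and 0.531 in females, and its log2 ratio of 5.59 was 2.75 without the shallower male library. Mup14 read 0.63 and 14.6 FPKM in males, and its log2 ratio of 4.24 was 0.84 without the shallower one. Mup15 was described above. LOC100048884, named Mup18 by RefSeq, read 601 and 189 FPKM in males and 39.4 and 0.824 in females, and Gm6614 read 11.7 and 3.97 FPKM in males and 0.0739 and 0.034 in females. Outside the top 15, the protease inhibitor gene Serpina1e read 629 and 41.4 FPKM in males and 17.6 and 24.8 in females, and its log2 ratio of 3.98 was 0.96 without the deeper male library. These 6 were called by the authors, and none by limma, which gave adjusted p from 0.22 to 0.5.

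**Figure D2:**
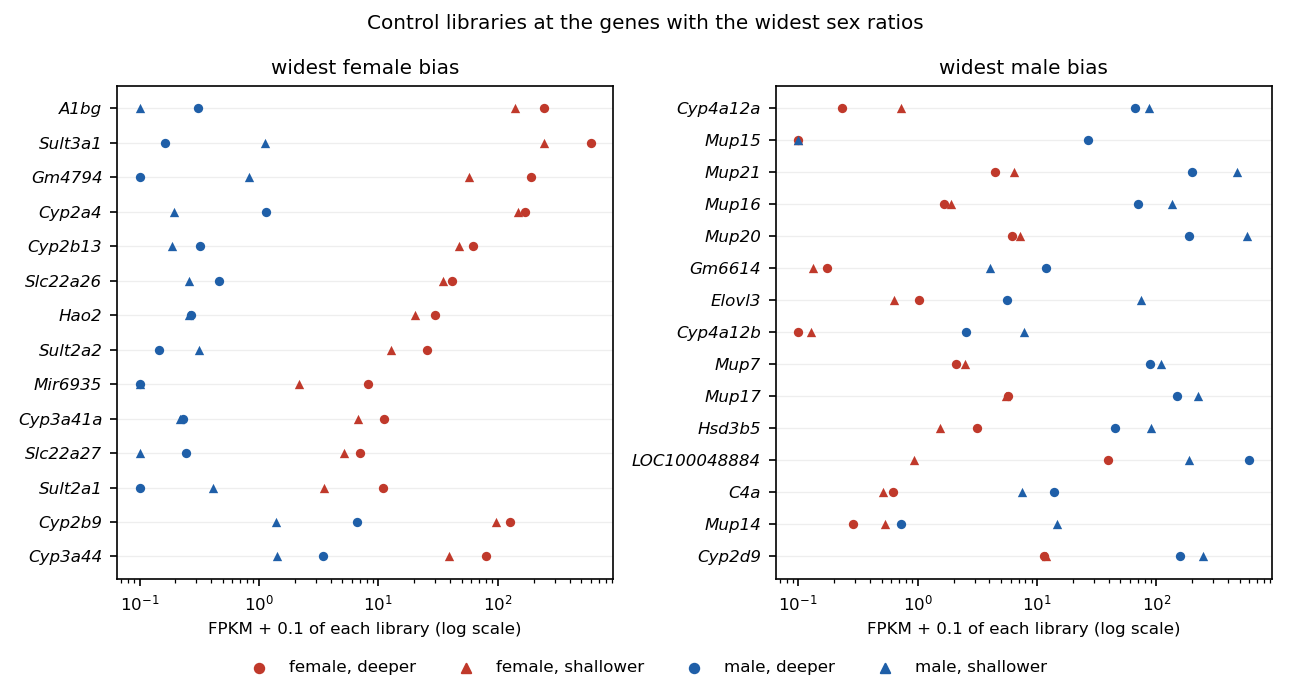
FPKM + 0.1 (log scale) of each control library at members from the 15 with the lowest (left) and the 15 with the highest (right) log2 ratio among those of at least 5 FPKM in the higher sex. Circles are deeper and triangles shallower libraries; red is female and blue male. The sexes separate in every row except Mup15, and the male pools lie far apart at Elovl3 and Mup14.

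Promoter sequence of these leading genes is shown because STAT5 binds the letters TTCNNNGAA and ONECUT and CUX factors bind sites around ATCAAT. Windows of 300 bases, from 250 before to 50 after the RefSeq start on GRCm38.p6, were found for 10 of the 15 most female-biased and 8 of the 15 most male-biased members. TTCNNNGAA was in 3 of the 10 and 0 of the 8, and ATCAAT, on either strand, in 5 of each, the 5 toward males all being Mup genes. The 3 female-biased genes with TTCNNNGAA are given with Mup7 and Mup17, 2 of the male-biased genes with ATCAAT; capitals mark both motifs, read on both strands, and no 2 marked matches overlap. The windows are chr15:60921221-60921520 (minus strand) for A1bg, chr10:33857472-33857771 (plus) for Sult3a1, chr19:7802618-7802917 (minus) for Slc22a26, chr4:60070426-60070725 (minus) for Mup7 and chr4:61595783-61596082 (minus) for Mup17.
A1bg: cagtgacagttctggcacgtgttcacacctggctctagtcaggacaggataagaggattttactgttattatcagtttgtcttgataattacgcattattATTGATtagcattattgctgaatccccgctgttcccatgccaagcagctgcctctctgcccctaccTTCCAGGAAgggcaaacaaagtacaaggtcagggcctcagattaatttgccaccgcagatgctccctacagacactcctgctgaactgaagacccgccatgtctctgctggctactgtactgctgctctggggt
Sult3a1: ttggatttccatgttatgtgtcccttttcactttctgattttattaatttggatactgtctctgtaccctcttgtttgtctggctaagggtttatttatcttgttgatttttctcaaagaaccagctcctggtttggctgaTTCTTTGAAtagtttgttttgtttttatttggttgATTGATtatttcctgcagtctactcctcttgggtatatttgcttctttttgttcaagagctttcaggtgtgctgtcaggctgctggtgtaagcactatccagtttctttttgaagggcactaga
Slc22a26: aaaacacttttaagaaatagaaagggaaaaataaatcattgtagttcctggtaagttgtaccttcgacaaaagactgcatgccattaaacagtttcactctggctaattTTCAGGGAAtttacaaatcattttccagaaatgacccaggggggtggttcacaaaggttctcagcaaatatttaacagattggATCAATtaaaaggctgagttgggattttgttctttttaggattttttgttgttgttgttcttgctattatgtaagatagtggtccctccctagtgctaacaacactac
Mup7: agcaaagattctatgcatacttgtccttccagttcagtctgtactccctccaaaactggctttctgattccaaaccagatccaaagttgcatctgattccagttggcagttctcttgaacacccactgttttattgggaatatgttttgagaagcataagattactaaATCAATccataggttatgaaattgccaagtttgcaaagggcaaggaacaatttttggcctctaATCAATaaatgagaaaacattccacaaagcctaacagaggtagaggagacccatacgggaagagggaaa
Mup17: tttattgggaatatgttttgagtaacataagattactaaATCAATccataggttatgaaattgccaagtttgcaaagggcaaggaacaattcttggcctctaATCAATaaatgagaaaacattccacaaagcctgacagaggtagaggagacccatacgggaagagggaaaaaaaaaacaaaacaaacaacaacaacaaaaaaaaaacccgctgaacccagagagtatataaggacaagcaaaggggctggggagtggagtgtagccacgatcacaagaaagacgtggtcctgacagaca

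In A1bg, Sult3a1 and Slc22a26 the TTCNNNGAA match began 84, 109 and 141 bases before the start, and each window also held 1 ATCAAT match. Mup7 and Mup17 each held 2 ATCAAT matches the same distance apart, 82 and 19 bases before the start in Mup7 and 211 and 148 before it in Mup17. Across all members with a window (6605 of 8966), 6.89% held TTCNNNGAA and 4.33% ATCAAT. Among called members with a window, TTCNNNGAA was in 9.09% of 88 male-biased and 10.1% of 89 female-biased genes. ATCAAT was in 20.5% of the male-biased and 15.7% of the female-biased. TATAAA, a core promoter motif searched in the same way, was in 18.2% and 20.2% of them and in 7.34% of all members, so a higher share than among all members was not particular to ATCAAT. Of the 18 male-biased genes with ATCAAT, 10 are Mup genes, which are near-identical copies; without the Mup genes it was in 8 of 78, or 10.3%. Over all 27025 genes with a window, the shares were 8.47% and 7.76%. These are matches of letters and not binding sites.

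Of the 34 families listed, the Mup family had the most members called. All 20 Mup genes listed were members and 17 were called, all higher in males, against 1.42% of all members called toward males. The 20 genes had a median log2 ratio of 3.53, against 0.16 over all members. Their summed level was 888 and 1078 FPKM in the female libraries and 4486 and 5970.1 in the male libraries. Mup3 was the most abundant, at 2626 and 2612 FPKM in males and 499.7 and 660.4 in females. Mup copies are near-identical, so the level of the family is firmer than that of any 1 copy. Mup2, Mup4 and Mup6 were the 3 not called. LOC100048884 and Gm2083, at the same locus but counted apart from the 20, were also called higher in males.

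Cytochrome P450 genes were called in both directions. Of 65 Cyp members, 11 were higher in males and 17 in females, against 1.42% and 1.56% of all members. In the Cyp2c family 3 of 13 were higher in males and 5 in females. Cyp2c29 read 609 and 686 FPKM in males and 267 and 286 in females, while Cyp2c39 read 188 and 176 FPKM in females and 39.6 and 23.9 in males. Summed over the family, the sexes were nearly level, at 1251 FPKM in females and 1271 in males. The Cyp3a family had 4 of 8 members called, all higher in females, while its summed level overlapped between the sexes, at 682 and 776 FPKM in the female libraries and 760.3 and 1122 in the male libraries. Cyp2b had 2 of 3 members called, both toward females, with summed levels of 172 FPKM in females and 7.33 in males. Cyp4a, the fatty acid omega-hydroxylases, split into 2 male-biased genes, Cyp4a12a and Cyp4a12b, and the female-biased Cyp4a10, at 19.9 and 20.4 FPKM in females and 8.75 and 3.41 in males.

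All 5 Sult2 members were called by the authors, all higher in females, against 1.56% of all members. Limma also called 1 of these 5 and voom 0. Their summed level was 34.9 FPKM in females and 0.689 in males, so each is a member only through females. The flavin monooxygenase genes Fmo1, Fmo2 and Fmo4 were higher in females, and limma also called each of them. Fmo1 read 67.9 and 67.7 FPKM in females and 29.7 and 33.5 in males, a difference far wider than the gap between pools. The glutathione transferase Gstp1 read 167 and 483 FPKM in males and 30.8 and 29.5 in females, and Gstp2 was also called toward males, but the 2 are close copies. The other Gst gene called among 20 members, Gstt3, was higher in females. Of 10 Ugt2 and Ugt3 members, 3 were higher in males and 1, Ugt2b37, in females, against 1.42% and 1.56% of all members. Ugt1a1, which conjugates bilirubin, and Ugt1a5 were higher in females, at log2 ratios of -0.66 and -1.39, in a locus whose transcripts share exons.

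**Figure D3:**
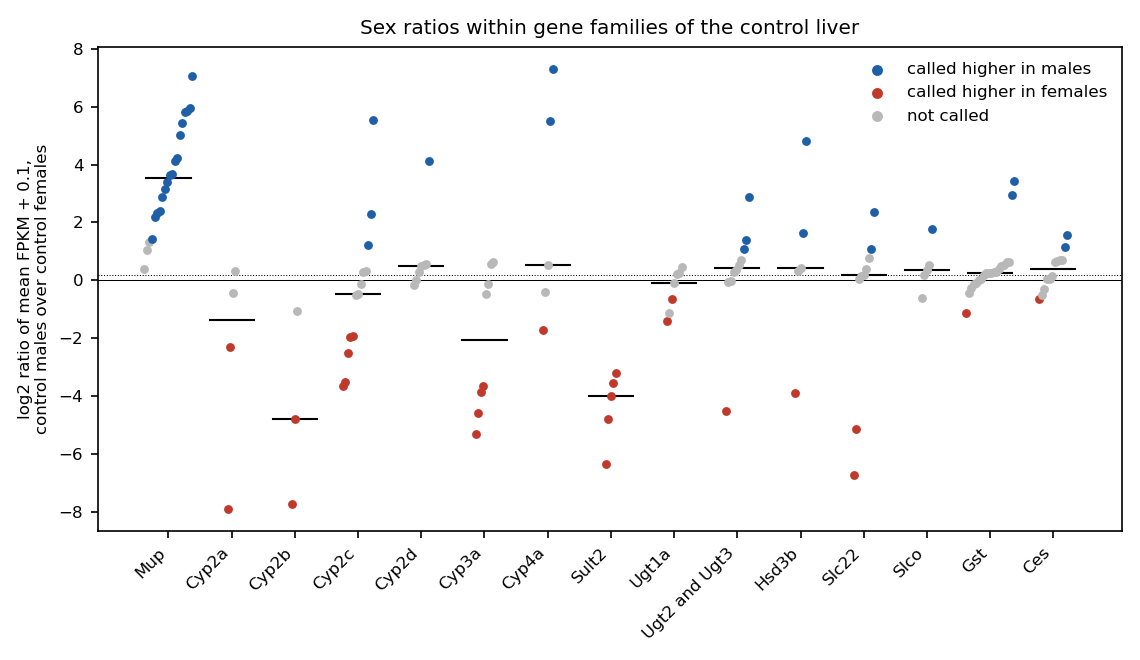
log2 ratio of control males to control females for each member of the gene families named on the x axis; blue and red mark members called higher in males and in females, grey the others, black bars family medians and the dotted line the median of all members, 0.16. The Mup family lies above the line, Sult2 below it, and Cyp2c and Hsd3b hold members on both sides.

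Steroid and bile acid enzymes changed as single steps. Among 25 members of steroid hormone metabolism, 3 were higher in males and 2 in females. Toward males were Hsd3b5, Hsd3b2 and the 5-alpha reductase Srd5a1, which read 15.7 and 13 FPKM in males and 6.44 and 5.94 in females. Toward females were Cyp17a1, the 17-alpha hydroxylase, at 17.6 and 8.85 FPKM in females and 3 and 0.526 in males, and Hsd3b1, at 1.37 and 1.4 FPKM in females and listed at 0 in both male libraries. Among 22 members of bile acid synthesis and transport, 3 were higher in males and 1 in females. Cyp7b1 and Cyp39a1, which both hydroxylate oxysterols, differed in opposite directions. Cyp7b1 read 71.7 and 136 FPKM in males and 16 and 18.9 in females, and Cyp39a1 read 6.1 and 4.28 FPKM in females and 1.19 and 1.14 in males. The sterol carrier Scp2 (log2 ratio 1.54) and the organic anion uptake transporter Slco1a1 (1.77) were the other 2 higher in males. Cholesterol synthesis and uptake had 0 of 27 members called by the authors, by limma or by voom. Over all members these called 2.98%, 0.67% and 1.02%, so 0 of 27 is near those shares.

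Complement genes called in the comparison were all higher in males: 6 of 38 complement and coagulation members, against 1.42% of all members. The list median was 0.20, against 0.16 over all members. Of the 6 called, 5 encode the terminal components that build the membrane attack complex. C6 read 40.3 and 71.4 FPKM in males and 2.46 and 4.12 in females, a limma difference of 4.03 ± 0.37 (adjusted p 0.013). C8a read 109.7 and 126 FPKM in males and 25.2 and 38.2 in females. C8b, C9 and Hc, the mouse gene for C5, had log2 ratios of 1.42, 1.79 and 1.02. Among 26 acute phase members, Saa1 was called higher in males and Orm3, Apcs and Hamp2 in females, against 1.42% and 1.56% of all members. Limma and voom called 0 of the 26.

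Among the growth hormone receptor and its signalling proteins, log2 ratios ran from -1.38 to 0.52 with a median of -0.10. With 2 pools a sex, a missing call does not show equal levels. Of 14 members, 1 was called by the authors, while 2.98% of all members were. It is the prolactin receptor gene Prlr, which read 15.8 and 18 FPKM in females and 7.38 and 5.45 in males. Voom called 1 of the 14, toward females, and limma 0. Ghr, the receptor, read 55.7 and 60.1 FPKM in females and 75.7 and 81.8 in males, with an adjusted p of 1 in the authors' deposited table and 0.3 by limma. Stat5b read 3.88 and 2.9 FPKM in females and 1.95 and 3.41 in males, so the sexes overlapped. Igf1, the main growth hormone target for body growth, read 56.8 and 77.2 FPKM in females and 47.3 and 51.1 in males, with an adjusted p of 0.35 in the authors' deposited table. Of the 12 members of the IGF1 axis, Igfbp1, which binds IGF1, and Ccnd1, a cell cycle cyclin, were called, both higher in females.

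Among 21 transcription factors linked to sex bias or hepatocyte identity, 4 were called. Bcl6 read 5.49 and 3.29 FPKM in males and 1.42 and 0.668 in females. Cux2 read 5.22 and 3.03 FPKM in females and 0.443 and 0 in males. Trim24, a co-regulator of nuclear receptors, read 5.45 and 5.29 FPKM in females and 2.03 and 1.03 in males, and Tox had a log2 ratio of -1.78. Limma gave these 4 adjusted p of 0.095 to 0.14, short of 0.05, while voom called 1 of the 21 members, toward females. Hnf4a, which defines hepatocytes, read 56.5 and 58.5 FPKM in females and 58.8 and 62.1 in males. None of 22 nuclear receptor members was called by the authors, by limma or by voom. Over all members the authors called 2.98%, so a list of 22 with none is near that share. The estrogen receptor gene Esr1 had a log2 ratio of -0.70 (adjusted p 0.45 in the authors' deposited table).

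In fat metabolism single genes were called in both directions. Lipogenesis had 1 of 23 members called, Elovl3, which is near the 2.98% called over all members. Of 34 members of fatty acid oxidation, 3 were higher in females, Cyp4a10, the acyl-CoA thioesterase gene Acot3 and Abcd2, a peroxisomal transporter of long fatty acids at 7.97 and 7.62 FPKM in females and 1.55 and 1.11 in males. Of 20 members of fatty acid uptake and lipid droplets, Fabp5 and the lipoprotein receptor gene Vldlr were higher in females. The third called there, Fitm1, which acts in lipid droplet formation, read 3.65 and 8.32 FPKM in males and 0.601 and 0.51 in females. In glucose metabolism, G6pc, whose product releases glucose from the liver, was higher in males, at a log2 ratio of 0.95. Apolipoproteins and lipoprotein assembly (21 members) and ribosomal proteins (74 members, median log2 ratio 0.25) had 0 called by the authors, by limma or by voom. At the authors' share of 2.98% over all members, few calls would be found in lists of this size. Of 26 interferon response members, the chemokine gene Cxcl9 and Xaf1 were called higher in females, at log2 ratios of -1.17 and -1.24. That count is not far from the 2.98% of all members called, and limma and voom called 0 of the 26.

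Of 35 members on a list of known male-biased liver genes, 27 were called higher in males and 0 higher in females, with a median log2 ratio of 2.88. Of 46 on the list of known female-biased genes, 34 were called higher in females and 0 higher in males, with a median of -2.62. Listed genes that were not called include Egfr (log2 ratio 0.78), Hsd17b13 (-0.26), Cyp4a14 (-0.40) and Cyp2b10 (-1.07). Both lists hold genes picked with results of these data known, and their counts are no independent evidence.

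Called genes lay near each other. Of the 267, 37.5% had another called member within 200 kb, against 8.32% of the other members with a called one as near. In 16 clusters of at least 3 there were 72 called genes, and 7 clusters held both directions. The widest is on chromosome 4 (60079340 to 61496214 on mm9), with 16 called genes, LOC100048884 and Gm2083 among the Mup genes, all higher in males. On chromosome 19 (39303743 to 40086733) lay 8 Cyp2c genes, 3 higher in males and 5 in females. On chromosome 3 (98422558 to 98697153), Hsd3b5 and Hsd3b2 were higher in males and Hsd3b1 and Hao2 in females. On chromosome 7 (26846513 to 27100107), Cyp2b13, Cyp2b9 and Cyp2a4 were all higher in females, and on chromosome 19 (7856472 to 8206472) Slc22a26 and Slc22a27 were higher in females beside the male-biased Slc22a28. Chromosome 4 had the highest share of members called, 5.89%, and chromosome 16 the lowest, 1.34%. Copies in a cluster can share reads, so neighbouring calls are not independent of each other.

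Markers of macrophages, of stellate cells and of endothelial cells summed to lower levels in males. The summed level of 11 Kupffer cell and macrophage members was 73.8 and 67.2 FPKM in females and 53.6 and 56.1 in males, with 0 called and a median log2 ratio of -0.42. Marco was under the FPKM minimum and Vsig4 is X-linked, so neither was a member. Of 7 stellate cell members, with a median of -0.40, the retinol esterifying enzyme gene Lrat (log2 ratio -0.63) and the collagen gene Col3a1 (-0.92) were called toward females, and the list summed to 63.8 and 60.7 FPKM in females and 39.2 and 57.2 in males. For 11 endothelial members the median was -0.20 and the highest log2 ratio -0.01, with 0 called. They summed to 65.1 and 64.7 FPKM in females and 53.7 and 63.9 in males. Over all members 2.98% were called, so 0 in a list of 11 is near that share. The 6 red blood cell members, all globin genes, summed to 149 and 125 FPKM in females and to 157 and 441 in males, with 0 called. In the knockout livers all 6 were called higher in males. Hba-a1 and Hba-a2 have the same ratios and adjusted p in the authors' deposited table, as do Hbb-b1 and Hbb-bs. The 6 are therefore not independent of each other, and their sum can count the same reads more than once. Alas2, the haem synthesis gene of red cell precursors, is X-linked and so no member; it read 4.47 and 9.06 FPKM in control males and 1.97 and 1.75 in control females and was called higher in males. The T cell gene Cd3e, at 1.71 and 0.741 FPKM in females and 0.311 and 0.562 in males, was 1 of 2 lymphocyte members and was called toward females. Carbonic anhydrase 3, Car3, on the list of fat and pancreas markers but also made by liver, read 959.8 and 1027 FPKM in males and 314 and 348 in females, while Adipoq and Prss2, defining genes of fat and pancreas, were at 0 in all 4 control libraries. Cela1, a pancreatic elastase gene and the only other member of that list, read 9.15 and 11.2 FPKM in males and 5.82 and 4.93 in females and was also called higher in males, with an adjusted p of 0.043 in the authors' deposited table. Fewer cells of a type and less RNA per cell cannot be told apart in bulk liver, and the part of these markers in the sex differences was not tested.

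Of 12 immediate early and heat shock members, 6 were called higher in females, Jun, Egr1, Btg2, Dusp1, Zfp36 and Gadd45g, and 1, Hspa1b, higher in males. Of all members, 1.56% were called toward females and 1.42% toward males. Egr1, a factor induced within minutes of stimulation, read 2.48 and 2.55 FPKM in females and 0.469 and 0.736 in males. Dusp1, a phosphatase of MAP kinases, read 9.76 and 11.5 FPKM in females and 4.06 and 2.91 in males. None of the 7 was called by limma, which gave adjusted p from 0.23 to 0.62. Among 18 circadian clock members 0 were called by the authors, by limma or by voom, near the authors' 2.98% over all members. The male pools differed, however. Arntl, a core clock activator, read 0.378 and 2 FPKM in the deeper and shallower male libraries, Ciart 5.75 and 0.81, and Nr1d1 4.95 and 20.4. Elovl3 and the globin genes also differed between the male pools. What sets the pools apart was not tested.

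**Figure D4:**
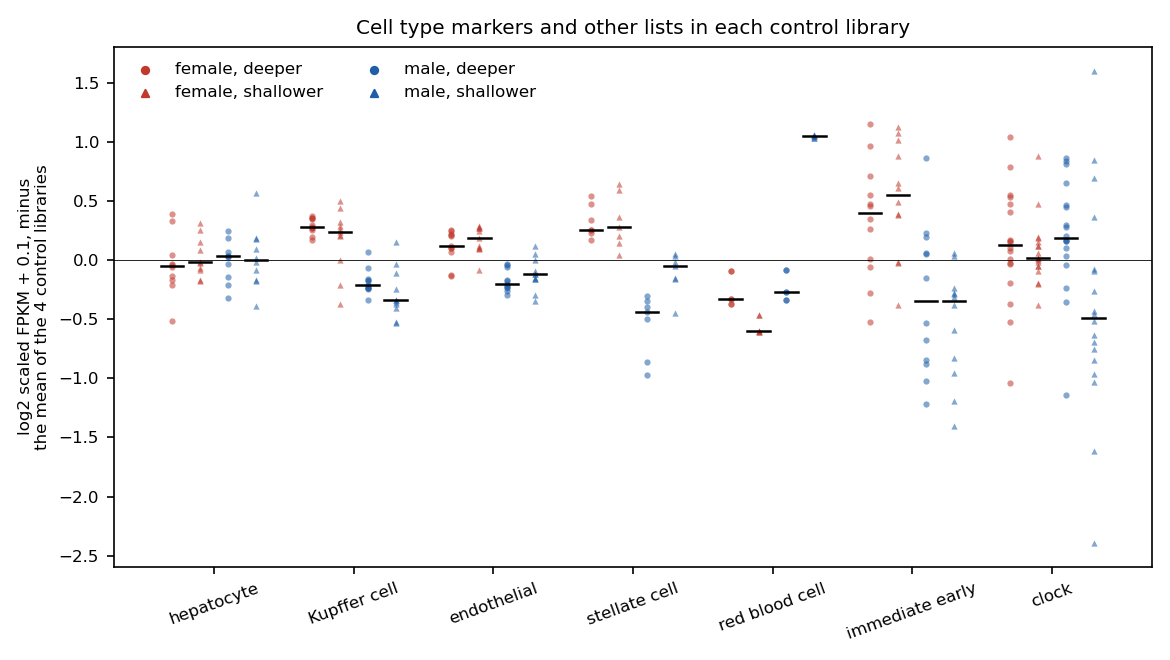
log2(scaled FPKM + 0.1) in each control library, minus the mean of the 4 control libraries, for listed members with recovered libraries. For hepatocytes these are 10 of the 15 markers. Circles are deeper and triangles shallower libraries, red female and blue male, and black bars medians. Red blood cell members stand highest in the shallower male library, immediate early members have medians of 0.40 and 0.55 in the female and -0.34 and -0.35 in the male libraries, and hepatocyte markers stay near 0.

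The same male to female comparison in livers whose hepatocytes lack STAT5 shares no library with the controls. Knockout male and female pools also carry different title codes, so code and sex cannot be told apart there either. The knockouts come from the cross to the FVB/N albumin-Cre line, so loss of STAT5 and that cross cannot be told apart. Stat5b, the targeted gene, read 1.77 and 1.11 FPKM in knockout females and 0.684 and 1.03 in knockout males, below every control library. Among members, the authors' deposited table called 78 higher in knockout males (0.87%) and 91 higher in knockout females (1.01%). Of the 127 members called toward control males, 111 had the same direction in knockouts and 48 were called there in that direction, and of the 140 called toward control females, 124 and 52. None was called in the opposite direction. Median log2 ratios were 1.76 in controls and 0.77 in knockouts for the male-biased, and -1.29 and -0.60 for the female-biased. In knockouts 79 and 90 of them lay within 2-fold, and in controls 11 and 48. These genes were chosen by their control difference, so a smaller ratio in the other genotype can come from the choice alone. For the members called in knockouts instead, the medians were 1.21 in knockouts and 1.51 in controls toward males, and -1.23 and -1.10 toward females.

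The test of the difference itself is the interaction of sex and genotype, in which limma called 2 of 8951 members (0.0223%). Cyp2b13, at 61.8 and 46.9 FPKM in control females against 0.219 and 0.0861 in control males, read 45.4 and 53.2 in knockout females and 99.6 and 53.4 in knockout males. The male to female difference in controls minus that in knockouts was -8.36 ± 0.51 (SE, log2, adjusted p 0.012). Snord93, a small nucleolar RNA gene singled out after its values were seen, read 1.92 and 1.48 FPKM in control females and 0 in both control male libraries, and 0 in both knockout female libraries against 1.4 and 0.753 in knockout males. Both genes are members only through control females. The Snord93 call rests on the pseudocount set against libraries at 0. With a pseudocount of 1 its limma adjusted p was 0.0801, against 0.0474 for Cyp2b13. Voom called 0 of the 8742 members it fitted, with a lowest adjusted p of 0.219. In that fit 436 of the 8742 had an unadjusted p under 0.05, about the share that this threshold gives where no gene differs. Snord93 had too few reads to enter the voom fit. Cyp2b9, which neighbours Cyp2b13, read 128 and 114 FPKM in knockout females and 121 and 91.9 in knockout males, with an interaction adjusted p of 0.5 by limma and 0.24 by voom. A1bg read 123 and 69.8 FPKM in knockout females and 0.537 and 0.576 in knockout males, so the sexes stayed far apart, at a log2 ratio of -7.20. Mup7 read 10.4 and 20.6 FPKM in knockout males and 1.62 and 1.19 in knockout females, a log2 ratio of 3.37 against 5.42 in controls, with an interaction adjusted p of 0.67 by limma. For most called genes a change of the sex ratio between genotypes was not detectable with 2 pools a group.

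**Figure D5:**
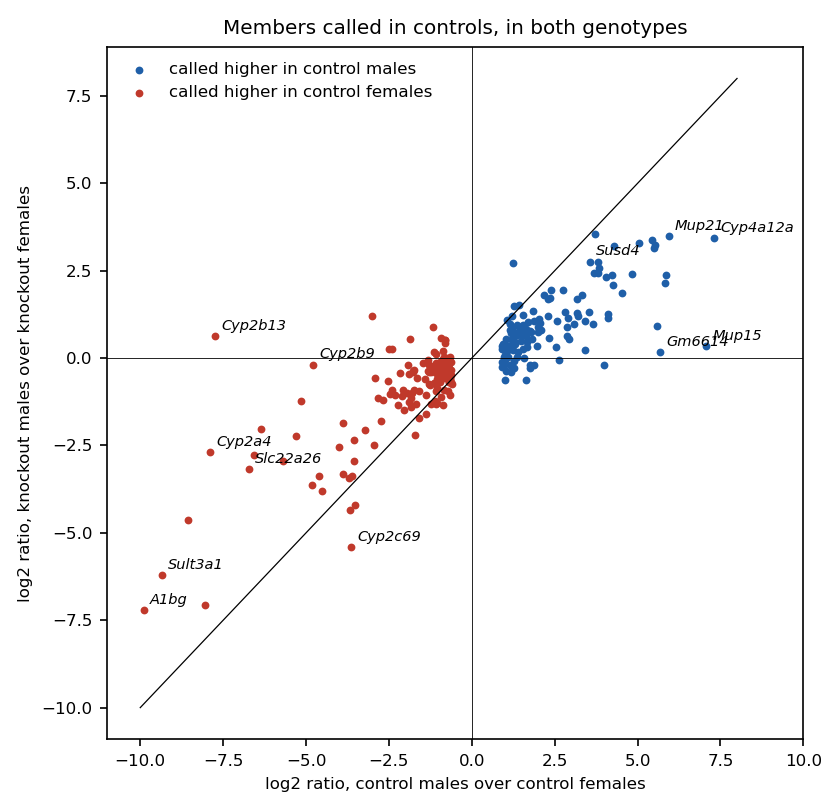
log2 ratio of males to females in controls (x) and in livers without hepatocyte STAT5 (y) for the 267 members called in controls; blue is called higher in control males, red in control females, and the diagonal marks equal ratios. The genes were chosen by the control difference on the x axis; most points lie between the diagonal and the horizontal line at 0, and Cyp2b13 lies just above that line.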

How the data were processed

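The deposited table holds each group's mean FPKM, with the authors' normalized expression ratio and p-values for every comparison, per the file headers. The submitters' processing notes name TopHat2, featureCounts, edgeR and mm9; versions, annotation and the strand setting of counting were not found there. Single-library FPKM and reads were recovered by solving each mean for 2 whole read numbers over the library totals, which gave 1 solution for 17987 genes above 0; the other 17 kept their means only. The main call is the authors' adjusted p under 0.05. Limma (3.58.1, R 4.3.3) was fitted with trend to log2(FPKM + 0.1) of 8 libraries in 4 groups, and limma voom to recovered reads of genes with at least 10 reads in 2 libraries. Both used Benjamini-Hochberg adjustment over all genes fitted and were tested on simulated data. Other pseudocounts, FPKM minimums, scalings and leaving out each control library were tried.

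Genes were named by a rule: the 15 widest ratios each way among members of at least 5 FPKM, up to 4 of each of 69 lists and families plus others whose role is stated, the 10 most abundant, 5 noncoding RNAs and label checks; some genes that it names are not reported here. Members and lists were chosen with earlier results of these data known.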

Additional observations from a re-analysis of the deposited data

Results flagged for a closer look

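Of the members tested, 2 had a sex difference that differed between control and knockout livers by the limma interaction test (adjusted p under 0.05). Both are members only through control females. For Cyp2b13 the log2 difference of males from females in controls minus that in knockouts was -8.36, and both knockout male libraries, at 99.6 and 53.4 FPKM, lay above both control male libraries, at 0.219 and 0.0861. For Snord93 this value was -7.66; it was detected in control females and knockout males and listed at 0 in the other 4 libraries, from low levels of at most 1.92 FPKM. The size of that value is set by the pseudocount of 0.1 where libraries are at 0, and with a pseudocount of 1 it was -2.47 (limma adjusted p 0.0801), against -6.14 for Cyp2b13 (0.0474). Voom gave Cyp2b13 an adjusted p of 0.22. With 2 libraries a group, no library was tested for standing apart from its group.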

How the results depend on the processing

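Counts of called members depended on the test and on single libraries. Against 267 by the authors' adjusted p, limma called 60 and voom 89, and 161 of the 267 were among genes of at least 5 FPKM. The other settings for that count (at least 2-fold, adjusted p under 0.01, mean of both sexes at least 1 FPKM, no FPKM filter) gave 214 to 347. The 60 limma calls became 42 to 59 with a pseudocount of 1, control libraries only or scaled FPKM, and 5 to 118 when single control libraries were left out, highest without the deeper male library. The 390 members at least 2-fold apart became 232 with a pseudocount of 1, 161 at 5 FPKM or more, 846 with no filter, and 323 to 607 when single libraries were left out. The interaction calls were 2, and 0 by voom, 1 with a pseudocount of 1 and 2 on scaled FPKM. Scaling of the libraries for that test and for their overlap between sexes, and leaving out libraries for the direction of the authors' calls, were chosen after seeing the data. Among the named members, 1219 of 1494 recomputed ratios moved by less than the spread between pools and no called gene reversed. For left-out libraries this is a lenient limit, because the spread comes from the same 2 pools. Where values moved, the cause was not tested. No paired analysis was possible because recovered libraries carry no pool number. The shallower control male library, with a total of 6192515, limits low genes most.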
